A study of Homo sapiens with 4 samples.

Results

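A set of 9 miRNAs that mark tissues other than the nervous system were followed in human neurons grown in culture: hsa-miR-126-3p and hsa-miR-126-5p for endothelium, hsa-miR-1-3p, hsa-miR-133a-3p and hsa-miR-206 for striated muscle, hsa-miR-122-5p for liver, and hsa-miR-142-5p, hsa-miR-142-3p and hsa-miR-223-3p for blood cells. They were chosen by name, as known markers of these lineages, but with earlier results of these data known. All 9 were among the 2656 mature miRNAs counted. The cells were cortical interneurons derived from H1, a single human embryonic stem cell line, and all of them were kept in neuronal maturation medium. In the exposed group the medium held about 50 to 100 mM ethanol for 7 days, followed by a day without ethanol, and the unexposed group received none. Each group had 2 small RNA-seq libraries from treatments done in duplicate. Whether the duplicates came from separate differentiations is not stated, so P values here measure the spread between these libraries only.

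The exposed libraries held 22223060 and 24858230 miRNA counts and the unexposed libraries 13941795 and 12100425, so the exposed libraries were also the deeper ones, and the effects of exposure and depth cannot be told apart. A list of 8 neuronal miRNAs, led by miR-9-5p (76.0% of the list) and miR-128-3p, made up 23.4% to 25.5% of the counts of a library. The 9 lineage markers together made up 0.140% and 0.121% of the exposed and 0.111% and 0.116% of the unexposed libraries. Levels are given as CPM, each count scaled to a library total of 1e+06, without further scaling unless TMM is named. A mature miRNA is read whole, so no division by length was needed to set one miRNA beside another, but unequal ligation of different miRNAs in library preparation was not measured.

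A miRNA is cut as a short duplex from a hairpin precursor, and the arm that is kept guides silencing of mRNAs that pair with its seed, the bases near its 5′ end. miR-126 is encoded within the endothelial gene EGFL7 and is known for its part in vessel integrity. miR-1, miR-133a and miR-206 are made in muscle cells and act in their differentiation, miR-122 is the dominant miRNA of hepatocytes, and miR-142 and miR-223 belong to haematopoietic cells, miR-223 chiefly to the myeloid lineage. Neurons carry other miRNAs, such as miR-9 and miR-124, so these markers serve as a reading of what else an in vitro neuronal culture contains or expresses.

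The mature sequences are shown because seeds and small differences decide which of these miRNAs could be mistaken for another in counting. They are from RefSeq, 5′ to 3′, with the seed (bases 2 to 8) in capitals, and hsa-miR-133b, which is not one of the markers, is added for comparison with hsa-miR-133a-3p.
hsa-miR-126-3p: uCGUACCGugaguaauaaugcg
hsa-miR-126-5p: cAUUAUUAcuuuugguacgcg
hsa-miR-1-3p: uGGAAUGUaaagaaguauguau
hsa-miR-206: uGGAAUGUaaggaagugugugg
hsa-miR-133a-3p: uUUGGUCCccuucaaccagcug
hsa-miR-133b: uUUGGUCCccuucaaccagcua
hsa-miR-122-5p: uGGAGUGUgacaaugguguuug
hsa-miR-142-5p: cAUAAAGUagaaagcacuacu
hsa-miR-142-3p: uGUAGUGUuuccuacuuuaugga
hsa-miR-223-3p: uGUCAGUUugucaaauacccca

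miR-1-3p and miR-206 share the seed GGAAUGU, and over their whole length they differ at 4 positions, A11G, A17G, A21G and U22G, with the base of miR-1-3p first and positions counted from its 5′ end. miR-133a-3p differs from miR-133b only by G22A, at the last base. How reads with an end variant were divided between miR-133a-3p and miR-133b is not given in the sources used here, so their separate values are uncertain. Among counted miRNAs with a sequence in the RefSeq set used, the nearest to each remaining marker had at least 8 mismatches. Bases were compared from the 5′ end without gaps. miRNAs without such a sequence were not compared. miR-122b-5p was also counted and tested (log2 fold change -0.87, SE 0.34, edgeR adjusted p = 0.922). Its sequence is not given here, so its likeness to miR-122-5p was not measured. The seed GGAAUGU is also held by miR-613, which had 0 counts, and the seed of miR-142-5p by miR-5590-3p, which also had 0 counts.

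The 9 markers spanned a wide range of levels in these neurons. The endothelial miR-126-3p was the highest at 751.3 to 1149 CPM over the 4 libraries and stood 75th among all miRNAs by mean level. The muscle miRNA miR-1-3p followed at 199.0 to 339.3 CPM (121st) and the liver miRNA miR-122-5p at 13.99 to 44.4 CPM (249th). miR-126-5p had 5.09 to 9.54 CPM, miR-133a-3p 1.22 to 1.80 CPM and miR-206 0.644 to 1.13 CPM. The leukocyte markers were at the bottom, with 3 counts of miR-142-5p over all 4 libraries and 0 of miR-142-3p and miR-223-3p.

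Down to miR-142-5p, no neighbours in this order overlapped in their ranges of CPM over the libraries. miR-142-5p itself had a library at 0 and so met miR-142-3p and miR-223-3p, which have no order between them. The narrowest gap was between miR-133a-3p and miR-206, whose nearest libraries differed 1.08-fold and whose Wilson 95% intervals overlapped. Such intervals cover counting error only, since reads were not counted as single molecules. The next narrowest was between miR-122-5p in its lowest library and miR-126-5p in its highest, 1.47-fold. miR-126-3p in its lowest library was 2.21-fold above miR-1-3p in its highest. Of all marker counts in a library, miR-126-3p supplied 67.6% to 82.1% and miR-1-3p 14.2% to 30.5%.

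**Figure D1:**
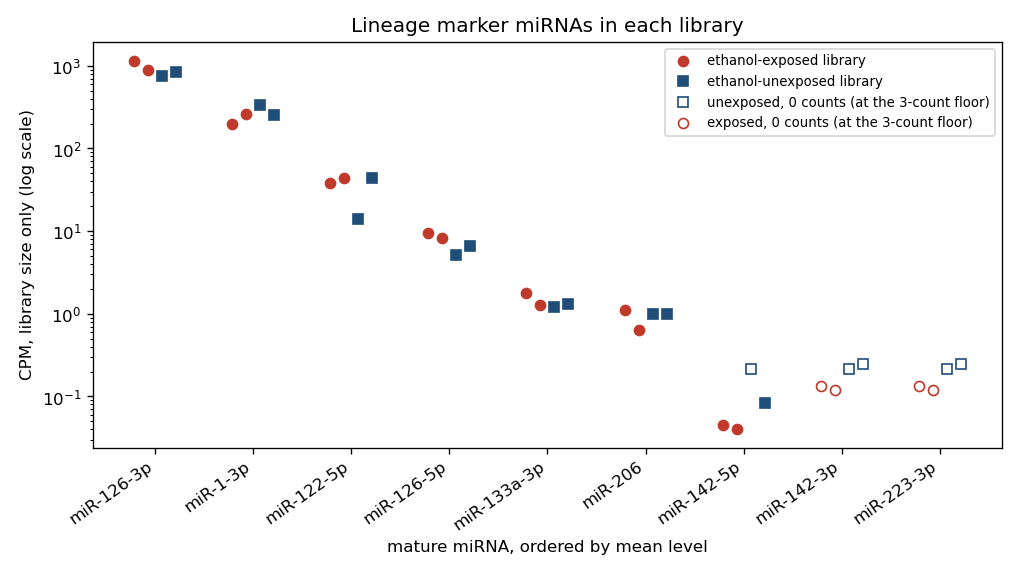
Levels of the 9 lineage marker miRNAs in each of the 4 libraries, in CPM on a log axis, with libraries at 0 drawn at the level of 3 counts. Drawn this way, the library of miR-142-5p at 0 lies above its libraries with 1 count. miR-126-3p lies between 751.3 and 1149 CPM and miR-1-3p between 199.0 and 339.3 CPM, while miR-142-3p and miR-223-3p have 0 counts in every library.

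For the comparison of exposed with unexposed neurons, 863 miRNAs passed the filter on low counts and were tested with edgeR, and 6 of the 9 markers were among them. None of these 6 passed an unadjusted P of 0.05, where 39 of all 863 miRNAs (4.52%) did. None was past both a fold change of 2 and that P, where 20 of 863 (2.32%) were, and after Benjamini-Hochberg adjustment 0 of 863 (0%) passed 0.05 in edgeR. By limma-voom 31 (3.59%) and by DESeq2 28 (3.24%) of the 863 had an unadjusted P under 0.05, 0 of the 6 markers among them in either tool, and 0 passed after adjustment. The log2 fold change was above 0 for 4 markers, 2 of them arms of the miR-126 hairpin, and below 0 for 2. Of all 863 miRNAs, 48.8% were above 0. The median was 0.15 for the tested markers and -0.010 for all 863. In bulk RNA, fewer cells of a type and less of a miRNA per cell cannot be told apart.

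**Figure D2:**
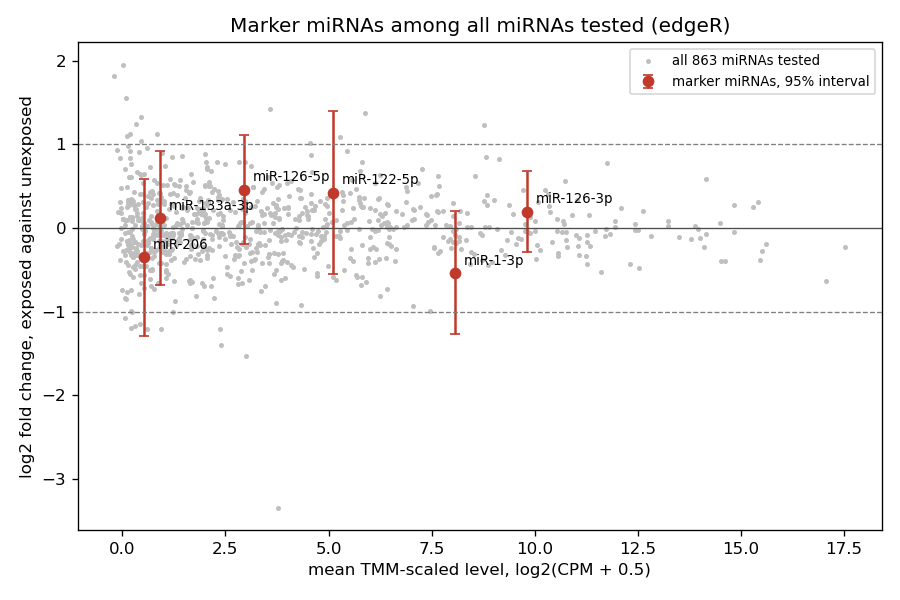
Log2 fold change of exposed against unexposed neurons, plotted against mean TMM-scaled level as log2(CPM + 0.5), for the 863 miRNAs tested (grey) and for the 6 tested markers with 95% intervals (red). All 6 intervals include 0, and the 6 fold changes lie between -0.54 and 0.46.

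The endothelial pair comes from 1 hairpin, so both arms are shown in the RefSeq precursor of MIR126 (GRCh38.p14, 85 bases), with miR-126-5p and then miR-126-3p in capitals.
MIR126: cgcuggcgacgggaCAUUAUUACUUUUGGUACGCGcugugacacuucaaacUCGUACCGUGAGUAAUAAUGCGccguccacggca

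MIR126 lies at chr9:136670602-136670686 on the plus strand of GRCh38, within an intron of EGFL7, which encodes a protein secreted by endothelial cells and is transcribed from the same strand. miR-126-3p, the major arm, known for repression of SPRED1, had 25530 and 22365 counts with ethanol and 10475 and 10301 without it, or 1149 and 899.7 against 751.3 and 851.3 CPM. Both exposed libraries were above both unexposed ones. After TMM scaling, used for every fold change, the levels were 965.5 ± 66.1 CPM in exposed and 844.2 ± 61.9 CPM in unexposed neurons (mean ± SD, n = 2). The log2 fold change was 0.19 (SE 0.21, 95% interval -0.29 to 0.68, edgeR adjusted p = 0.940).

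miR-126-5p, the minor arm, had 212 and 205 counts with ethanol and 71 and 80 without it, or 9.54 and 8.25 against 5.09 and 6.61 CPM. It was again higher in both exposed than in both unexposed libraries. Its TMM-scaled levels were 8.41 ± 0.0109 and 6.12 ± 0.140 CPM (mean ± SD, n = 2), a log2 fold change of 0.46 (SE 0.28, 95% interval -0.19 to 1.11, edgeR adjusted p = 0.922). Counting error alone was wider than these SDs. Before TMM scaling the Wilson 95% intervals were 8.34 to 10.9 and 7.19 to 9.46 CPM with ethanol. Without it they were 4.04 to 6.42 and 5.31 to 8.23 CPM. These arms were the only 2 of the 6 tested markers whose groups did not overlap on the TMM scale. Among all 863 miRNAs, 18.8% were higher in both exposed libraries and 14.6% lower in both, and with 2 libraries against 2 the smallest two-sided P of an exact permutation test is 0.333, which each arm had.

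The 2 arms kept nearly the same proportion in all libraries. miR-126-5p made up 0.824% (Wilson 95% interval 0.720 to 0.942) and 0.908% (0.793 to 1.04) of both arms in exposed neurons, and 0.673% (0.534 to 0.848) and 0.771% (0.620 to 0.958) in unexposed neurons. The share was higher in both exposed libraries, by 0.144 percentage points on average (exact permutation P = 0.333, the smallest possible), and the intervals of the groups overlapped. miR-9-5p, the most abundant neuronal miRNA, exceeded miR-126-3p 157.5-fold and 209.4-fold with ethanol and 286.0-fold and 196.5-fold without it, and miR-124-3p exceeded it 2.74-fold to 5.34-fold. Of the other miRNAs in the neuronal list, miR-128-3p and miR-9-3p were also above miR-126-3p. miR-218-5p, at 821.6 to 1552 CPM, overlapped it in range. miR-137-3p, miR-138-5p and miR-153-3p were below it, with mean levels of 75.2, 55.4 and 24.6 CPM.

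The muscle miRNAs are encoded in pairs. MIR1-1 (chr20:62554306-62554376, plus strand, GRCh38) lies in an intron of MIR1-1HG and MIR133A2 (chr20:62564912-62565013) overlaps an exon of the same host gene, 10535 bases further. MIR1-2 (chr18:21829004-21829088, minus strand) and MIR133A1 (chr18:21825698-21825785) are 3218 bases apart, overlap exons of MIR133A1HG, and stand opposite to an intron of MIB1, a ubiquitin ligase gene of Notch signalling. MIR206 (chr6:52144349-52144434, plus strand) overlaps no other annotated gene, and MIR133B lies 4488 bases further on. The same mature miR-1-3p and miR-133a-3p come from both of their loci, so a count cannot be given to 1 locus.

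miR-1-3p, which restrains proliferation of muscle cells as they differentiate, had 4422 and 6468 counts with ethanol and 4730 and 3072 without it. Its levels were 199.0 and 260.2 CPM in exposed and 339.3 and 253.9 CPM in unexposed neurons. The highest library was an unexposed one and the lowest an exposed one, but the groups overlapped. On the TMM scale the levels were 220.5 ± 63.9 and 319.8 ± 114.7 CPM (mean ± SD, n = 2), and the log2 fold change was -0.54 (SE 0.32, 95% interval -1.27 to 0.20, edgeR adjusted p = 0.922).

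The value for miR-1-3p rested on single libraries. Leaving out exposed replicate 2 gave a log2 fold change of -0.86 (edgeR adjusted p = 0.942), and leaving out unexposed replicate 2 gave -0.89 (edgeR adjusted p = 0.0625). Both were then past an unadjusted P of 0.05, as were 4.94% of all miRNAs tested without exposed replicate 2 and 11.4% without unexposed replicate 2. The adjusted p over all alternatives was 0.0625 to 1.00. Leaving out unexposed replicate 1 gave -0.12. The replicates of the exposed group differed by 0.60 on the log2 scale, and 9.15% of the 863 miRNAs differed at least as much between these libraries. For the unexposed replicates the difference was 0.75 and the share 16.6%.

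miR-133a-3p, a muscle miRNA known for repression of the transcription factor SRF, had only 40 and 32 counts with ethanol and 17 and 16 without it. In CPM these were 1.80 and 1.29 against 1.22 and 1.32. The groups overlapped, the TMM-scaled levels were 1.45 ± 0.192 and 1.34 ± 0.140 CPM (mean ± SD, n = 2), and the log2 fold change was 0.11 (SE 0.35, 95% interval -0.69 to 0.92, edgeR adjusted p = 0.983). Its sign turned when exposed replicate 1 (-0.029) or unexposed replicate 2 (-0.027) was left out.

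miR-206, the member of the miR-1 seed group found in skeletal muscle, had 25 and 16 counts with ethanol and 14 and 12 without it, or 1.13 and 0.644 against 1.00 and 0.992 CPM. An exposed library was the highest and the other exposed library the lowest. The log2 fold change was -0.35 (SE 0.40, 95% interval -1.29 to 0.58, edgeR adjusted p = 0.955). It was -0.68 without exposed replicate 1, -0.56 without unexposed replicate 2, -0.18 without unexposed replicate 1 and -0.085 without exposed replicate 2.

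The muscle miRNAs were far from equal in level even where their precursors are neighbours. miR-1-3p exceeded miR-133a-3p 110.5-fold and 202.1-fold with ethanol and 278.2-fold and 192.0-fold without it, and 178-fold over the summed counts (18692 against 105). It exceeded miR-206, whose 67 counts share its seed, 176.9-fold to 404.2-fold. Neither ratio separated the groups (exact permutation P = 0.667 and 1). miR-133b had 3, 1, 1 and 2 counts, a sum of 7 over the 4 libraries.

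Reads of the other arms of the muscle precursors were few. The 5p arm of miR-133a had 4 and 10 counts with ethanol and 5 and 0 without it, which is 9.09% (Wilson 95% interval 3.59 to 21.2) and 23.8% (13.5 to 38.5) of both arms against 22.7% (10.1 to 43.4) and 0% (0 to 19.4). These shares overlapped between the groups (exact permutation P = 0.667). The 5p arm of miR-1 had 0 counts in every library, against 18692 of miR-1-3p, but RefSeq names that arm for MIR1-1 and not for MIR1-2.

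Of the other muscle miRNAs looked up, miR-499a-5p, encoded in a myosin heavy chain gene, had 640 and 674 counts with ethanol and 345 and 355 without it, or 24.8 to 29.3 CPM. The cardiac miR-208a-3p had a single count, in unexposed replicate 1, and miR-208b-3p had 1, 3, 2 and 2 counts. The list of 8 striated muscle miRNAs summed to 231.1 and 289.8 CPM in exposed and 366.9 and 285.9 CPM in unexposed neurons, 89.7% of it miR-1-3p. Of its 4 tested members 0 passed an unadjusted P of 0.05, where 4.52% of all 863 miRNAs did.

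The liver marker is shown in its RefSeq precursor (GRCh38.p14, 85 bases), with miR-122-5p and then miR-122-3p in capitals, because reads came almost entirely from the first of these arms.
MIR122: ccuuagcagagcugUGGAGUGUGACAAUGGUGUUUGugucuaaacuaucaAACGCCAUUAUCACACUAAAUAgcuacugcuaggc

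MIR122 lies at chr18:58451074-58451158 on the plus strand of GRCh38 and overlaps an exon of the long non-coding RNA gene MIR122HG. miR-122-5p, which acts in lipid and cholesterol metabolism in hepatocytes, had 857 and 1077 counts with ethanol and 195 and 537 without it. The levels were 38.6 and 43.3 CPM in exposed and 13.99 and 44.4 CPM in unexposed neurons. Of the libraries, 3 were close together and unexposed replicate 1 was low, while unexposed replicate 2 was the highest in CPM. The 3p arm had 0 and 1 counts with ethanol and 1 and 0 without it.

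On the TMM scale miR-122-5p had 39.1 ± 7.26 CPM in exposed and 29.1 ± 17.8 CPM in unexposed neurons (mean ± SD, n = 2). The log2 fold change was 0.42 (SE 0.42, 95% interval -0.55 to 1.40, edgeR adjusted p = 0.937), and the groups overlapped. Its unexposed replicates differed by 1.31 on the log2 scale, and 27 of 863 miRNAs (3.13%) differed at least as much between these libraries. The unexposed library left in decided the comparison. Leaving out unexposed replicate 1 gave a log2 fold change of -0.10 (edgeR adjusted p = 0.934), and leaving out unexposed replicate 2 gave 1.21 (edgeR adjusted p = 0.0239). In the latter comparison 15 of 954 miRNAs (1.57%) had an adjusted p under 0.05. Over all alternatives the adjusted p was 0.0239 to 1.00.

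**Figure D3:**
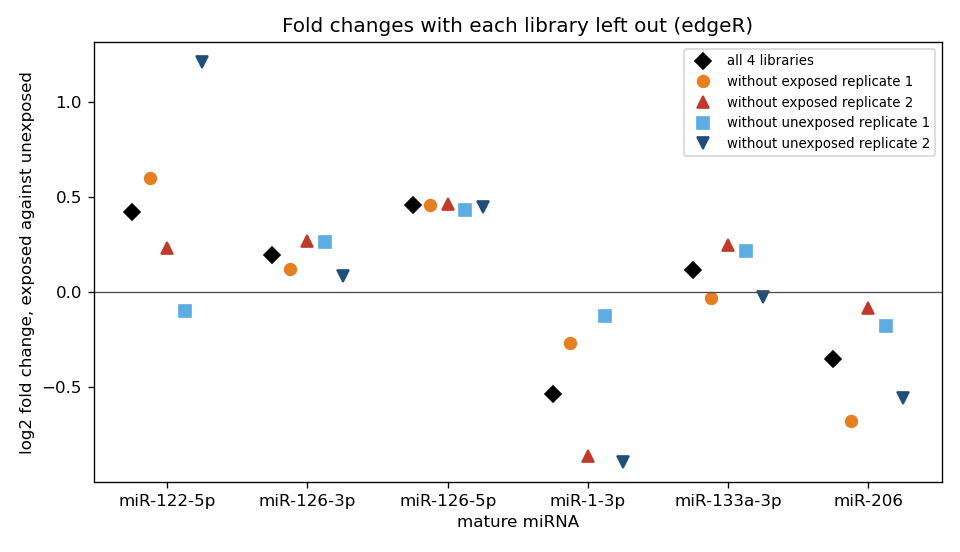
Log2 fold change of exposed against unexposed neurons for the 6 tested markers, with all 4 libraries and with each library left out in turn (edgeR). miR-122-5p moves between -0.10 and 1.21 and miR-1-3p between -0.89 and -0.12, while miR-126-5p stays between 0.43 and 0.46.

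The low level of miR-122-5p in unexposed replicate 1 also shows in its ratios to other markers. The ratio of miR-1-3p to miR-122-5p was 5.16 and 6.01 in the exposed libraries, 24.3 in unexposed replicate 1 and 5.72 in unexposed replicate 2. That of miR-126-3p to miR-122-5p was 29.8 and 20.8, then 53.7 and 19.2. Unexposed replicate 1 had the highest value of both ratios. Both have miR-122-5p as denominator, so they are no separate observation of its low level there. miR-1-3p was also at its highest in that library, at 339.3 CPM.

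The list of 5 liver miRNAs was mostly miR-192-5p (73.3%), a miRNA of liver, gut and kidney, at 553.3 to 629.2 CPM. The list summed to 818.5 and 763.5 CPM in exposed and 734.1 and 829.1 CPM in unexposed neurons. None of its 4 tested members passed an unadjusted P of 0.05, where 4.52% of all 863 miRNAs did.

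The leukocyte markers were at the detection limit. MIR142 lies at chr17:58331232-58331318 on the minus strand of GRCh38, over an exon of the non-coding gene AC004687.1, and MIR223 at chrX:66018870-66018979 on the plus strand, over an exon of AL034397.3. miR-142-5p had 1 count in each exposed library, 0 in unexposed replicate 1 and 1 in unexposed replicate 2, which is 0.0410 CPM over all libraries (Wilson 95% interval 0.0140 to 0.121). miR-142-3p and miR-223-3p had 0 counts of 73123510 in all, which allows up to 0.0410 CPM for each (3 counts). Over the summed counts miR-126-3p was at least 22890-fold higher than either of them, and miR-1-3p at least 6231-fold higher. None of these 3 entered the test, and a difference between exposed and unexposed neurons was not detectable at this depth.

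Other blood cell miRNAs were also low. The list of 6 leukocyte miRNAs summed to 6.17 and 5.75 CPM in exposed and 6.10 and 7.19 CPM in unexposed neurons, of which 94.98% was miR-155-5p, an inflammation miRNA of many cell types. The lymphocyte miRNA miR-150-5p had 11 and 7 counts against 1 and 3. In that list 3 miRNAs had 0 counts in every library, miR-223-5p among them. The 3 erythroid miRNAs summed to 1.94 and 1.73 against 2.22 and 0.496 CPM. Of the leukocyte and the erythroid list 1 member each was tested and 0 passed an unadjusted P of 0.05. The erythroid list held miR-451a and both arms of miR-144, but not miR-486, which is made in erythroid and in muscle cells. It is named here after its values were seen. The log2 fold change was 0.62 for miR-486-5p (SE 0.20, edgeR adjusted p = 0.922) and 0.92 for miR-486-3p (SE 0.33, edgeR adjusted p = 0.922). Both were higher with ethanol and past an unadjusted P of 0.05, as were 4.52% of all 863 miRNAs. Since miR-486 was picked with these values known, its unadjusted P values carry no weight as a test.

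**Figure D4:**
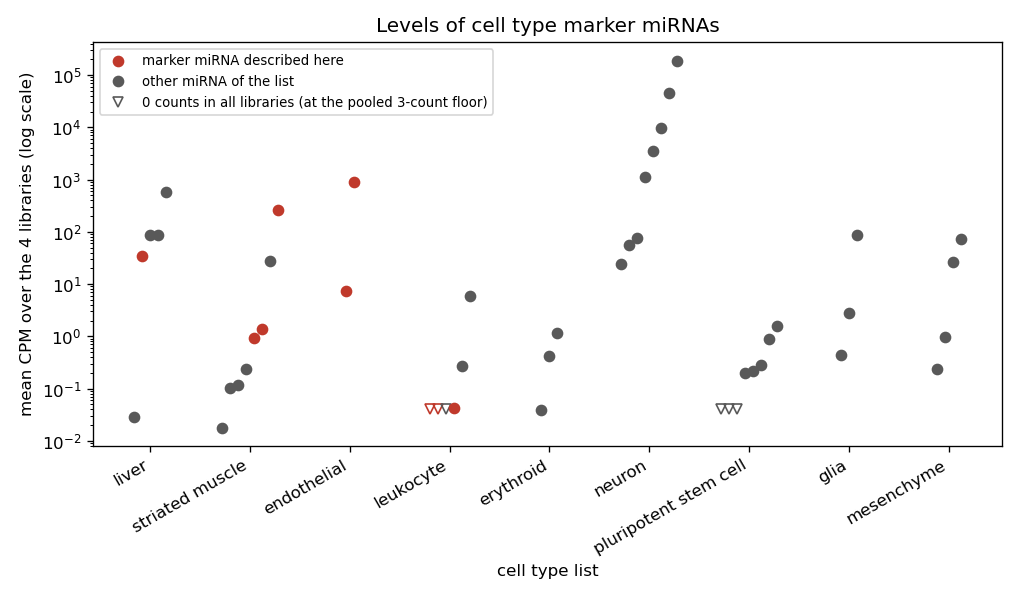
Mean level over the 4 libraries, in CPM on a log axis, of each miRNA in 9 cell type lists, with the 9 lineage markers in red and miRNAs at 0 counts in all libraries as open triangles at the level of 3 counts over all libraries. miR-126-3p and miR-1-3p lead the endothelial and the striated muscle list, and the neuron list, at 23.4% to 25.5% of all counts, reaches the highest levels.

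The remaining lists place these markers in the culture. All 8 neuronal miRNAs were tested, and 1, miR-124-3p, passed an unadjusted P of 0.05, as did 4.52% of all 863 miRNAs. Its levels were 6134 and 3292 CPM with ethanol against 2494 and 2329 CPM without it. The log2 fold change was 0.77 (edgeR adjusted p = 0.922). Of 8 pluripotent stem cell miRNAs 3 had 0 counts and the sum was 2.75 to 4.13 CPM, below miR-126-5p in every library. The 3 glial miRNAs summed to 64.3 to 122.9 CPM and the 4 mesenchymal miRNAs to 77.2 to 119.2 CPM, both below miR-1-3p in every library. Of the tested members of these last 3 lists, 0 of 2, 0 of 2 and 0 of 3 passed an unadjusted P of 0.05. Whether any of the lineage markers came from a few cells of another type or from the neurons themselves was not tested.

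The miRNA whose centred log2 levels over the 4 libraries were most like those of each tested marker was taken from the 863. It was miR-26a-1-3p for miR-126-3p, miR-26b-3p for miR-126-5p, miR-92a-1-5p for miR-1-3p, miR-598-5p for miR-133a-3p, miR-4636 for miR-206 and miR-487a-5p for miR-122-5p. The root mean square difference of log2(CPM + 0.5), with TMM-scaled CPM, was 0.0231 to 0.0454 for the first 5 and 0.108 for the last. By this measure no miRNA followed miR-122-5p as closely as one followed each of the others. Some matches were low, such as miR-487a-5p at 0.430 to 1.98 CPM and miR-26a-1-3p at 1.79 to 2.84 CPM. The markers miR-133a-3p and miR-206 were themselves this low, at 1.22 to 1.80 and 0.644 to 1.13 CPM. At such levels the added 0.5 dampens changes. With 4 libraries this is a description of likeness only.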

How the data were processed

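Small RNA-seq libraries (NEBNext) of exposed and unexposed interneurons were processed by the authors with CAP-miRseq, and the deposited table holds the unnormalized read count of each mature miRNA (2656 miRNAs, 0 columns left unused). The submitters' processing notes name hg19, and the counts carry no coordinates. The version of CAP-miRseq and the treatment of reads matching several miRNAs are not given in the sources used here.

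Groups were taken from the sample labels. edgeR 4.0.16 in R 4.3.3 (filterByExpr at its minima of 10 counts per library and 15 in total, TMM, quasi-likelihood test without covariates, Benjamini-Hochberg adjustment over 863 miRNAs) gave the comparison, after being tested on simulated data. Levels of single miRNAs were CPM, and single ratios and arm shares had two-sided exact permutation tests. DESeq2 1.42.0 and limma-voom (limma 3.58.1) were tried as alternatives, as were other scalings and filters, the replicate number as a block and each library left out. The members and lists were chosen with earlier results of these data known. The miRNAs named were the 9 markers, their other arms, near copies, list members, miR-122b-5p, miR-486 and the closest in pattern, and other genes only as hosts. Mature sequences (9 of 9 markers) and hairpins (8 of 9 genes) came from RefSeq, and positions from GENCODE 29 on GRCh38, matched by name.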

Additional observations from a re-analysis of the deposited data

How the results depend on the processing

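The order of the markers in mean level was the same with TMM, with library size alone and with each library left out. With all 4 libraries, no alternative turned the sign of a marker's log2 fold change. Over 78 marker and setting pairs the direction and the side of the threshold were kept in 72, a P under 0.05 was gained in 3 and the sign turned in 3, all of the latter with a library left out. The ranges with each library left out were -0.10 to 1.21 for miR-122-5p and -0.029 to 0.25 for miR-133a-3p. For the arm shares they were -0.464 to 0.0464 percentage points for miR-122-3p and -6.28 to 16.4 for miR-133a-5p, and these rest on few counts. With a library left out, 0 to 2 of the markers had a P under 0.05 and 0 to 1 were also past a fold change of 2, where 1.42% to 11.4% of all miRNAs tested had such a P, against 4.52% with all libraries. A lone library was then assumed to vary like the other group.

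Of all miRNAs, 20 changed over 2-fold with an unadjusted P under 0.05, against 10 in DESeq2, 49 with a filter of 1 count in any library, 12 with CPM above 1, 11 with 10 counts in every library and 10 to 44 with a library left out. The cause was not tested, except that the filters change how many were tested. Scaling by library size alone moved the median log2 fold change of all miRNAs by 0.15, and scaling by the upper quartile by -0.11. Under these scalings miR-126-3p was at 0.35 and 0.086, miR-133a-3p at 0.28 and 0.0055 and miR-206 at -0.18 and -0.46.

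Same-numbered libraries did not deviate together (correlation -0.19). Whether equal numbers pair the cultures is not stated, and a correlation over 4 libraries cannot decide it. With the replicate block 0 markers and 25 of 863 miRNAs had a P under 0.05, against 0 and 39 without it. With the replicate block crossed, chosen after seeing the data, 1 marker and 59 miRNAs did. The exposed libraries were deeper than the unexposed ones, and levels under 3 counts could not be read.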
